A study of Homo sapiens with 4 samples.

Results

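The 77 genes described here carry the symbols of mitochondrial ribosomal proteins, and all but MRPS36 encode such a protein. They are all rows of the count table whose symbol is MRPL or MRPS followed by a number and at most 1 letter, out of 25369 genes in the table. Of them, 48 carry an MRPL symbol and 29 an MRPS symbol, and neither antisense nor pseudogene symbols were taken. Their levels were measured by poly(A) RNA sequencing in H226, an established human line of lung squamous cell carcinoma that carries an inducible short hairpin RNA. The shControl group (n = 2 libraries) expressed the control hairpin, which the series title calls non-targeting, and the shp63 group (n = 2) expressed a hairpin against p63, a transcription factor of basal epithelium. Both groups received 1 µg/mL doxycycline for 6 days, and the labels name 1 construct per group. Hairpin and target effects therefore cannot be told apart.

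Mitochondria keep ribosomes of their own, which translate the few proteins encoded in mitochondrial DNA, all of them parts of the respiratory chain and ATP synthase. The RNA of these ribosomes is made in the organelle, while every one of their proteins is encoded in the nucleus, made in the cytosol and imported. MRPL genes mostly encode proteins of the large subunit, which joins amino acids, and MRPS genes mostly proteins of the small subunit, which reads the mRNA. The names have exceptions. MRPS30 and MRPS18A encode proteins of the large subunit, and MRPS36 encodes a subunit of the oxoglutarate dehydrogenase complex and not a ribosomal protein.

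The knockdown was checked first. TP63 stood at 136 and 137 CPM (read counts scaled to library size with TMM factors) in the shControl libraries and at 30.7 and 30.5 CPM in the shp63 libraries, a log2 fold change of -2.16 (SE 0.041). MYC, a transcription factor of cell growth, stood at 113 and 115 CPM in shControl and at 27.1 and 27.5 CPM in shp63 (log2 fold change -2.06, SE 0.042). The libraries held 51926832 to 53924761 counted reads. Squamous markers were present, and 9 of 10 fell, with TP63, the target of the hairpin, counted among them. Their summed level was 6215 and 6099 CPM in shControl and 3777 and 3977 CPM in shp63. Most of it was KRT17, at 3894 and 3902 CPM against 2971 and 3152 CPM. KRT14 and PKP1 were at 4.47 CPM or less. KRT5 fell from 807 and 707 CPM to 142 and 154 CPM, KRT6A rose, and SOX2 was at 0.252 CPM or less. Of the leukocyte markers, CD14 stood at 6.47 and 5.86 CPM in shControl and at 45.2 and 42.6 CPM in shp63, and CD68 at 6.98 and 6.25 CPM against 32.3 and 31.03 CPM. ITGAM went the other way, from 0.739 and 0.651 CPM to 0.288 and 0.259 CPM. PTPRC and CD3E, defining markers of leukocytes and T cells, were at 0.154 CPM or less in every library. Summed mesothelial markers were 334 and 361 CPM against 630 and 636 CPM, nearly all of it MSLN and UPK3B, with WT1, CALB2 and LRRN4 at 0.149 CPM or less. Of the 4 endothelial markers, summing to 59.9 and 64.9 CPM against 191 and 190 CPM, CDH5 carried most, and PECAM1 reached at most 2.06 CPM and KDR 0.0199 CPM. VWF fell from 4.82 and 4.50 CPM to 1.19 and 1.42 CPM. Summed fibroblast markers (7 genes, nearly all COL1A1) were 96.8 and 102 CPM against 75.2 and 67.1 CPM. The part of these markers in the results was not tested.

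All 77 genes were well above the filter on low counts, with 565 to 8297 reads per library. They moved mostly downward and by little. In shp63, 46 of 77 fell and 10 rose, and 21 did not pass. A call means a Benjamini-Hochberg adjusted p under 0.05 over all 14901 genes tested, from the quasi-likelihood fit of edgeR. Together 72.7% of the family was called, against a background of 74.0% of all tested genes, so the share called is that of the transcriptome. By direction, 59.7% of the family fell, against 37.1% of tested genes, and 10 of 77 rose, against 36.9%. The median log2 fold change was -0.14, with the middle 50% of the family between -0.27 and -0.01. Over all tested genes the median was -0.01 and the middle 50% ran from -0.35 to 0.38. A log2 change beyond 0.5 in either direction was found for 1 of 77 members and for 37.8% of tested genes. When the fit tested for more than a 1.5-fold change, MRPL11 was the 1 member called, against a background of 22.7%. By direction that was 1 fall (background 1491 of 14901 genes) and 0 rises (background 12.7%), also at an unadjusted p under 0.05 in edgeR.

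For 68 members, or 88.3%, shControl and shp63 values were fully separated, against a background of 86.4%. Of these, 53 were lower in both shp63 libraries (background 43.6%) and 15 higher (background 42.8%). Summed over the family, the level was 4371 and 4342 CPM in shControl and 3852 and 4006 CPM in shp63. That is a mean of 4357 ± 20.4 against 3929 ± 109 CPM (SD, n = 2 each), a ratio of 0.902. The exact two-sided permutation test gave p = 0.333, the smallest that 2 libraries against 2 allow. The family took 0.449% of the reads in both shControl libraries and 0.375% and 0.387% in the shp63 libraries. The second shp63 library stood above the first for 62 of 77 members, against 53.4% of all tested genes, so members share a difference between these libraries and are not independent of each other. In bulk RNA, fewer cells that express a gene and less RNA per cell cannot be told apart.

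**Figure D1:**
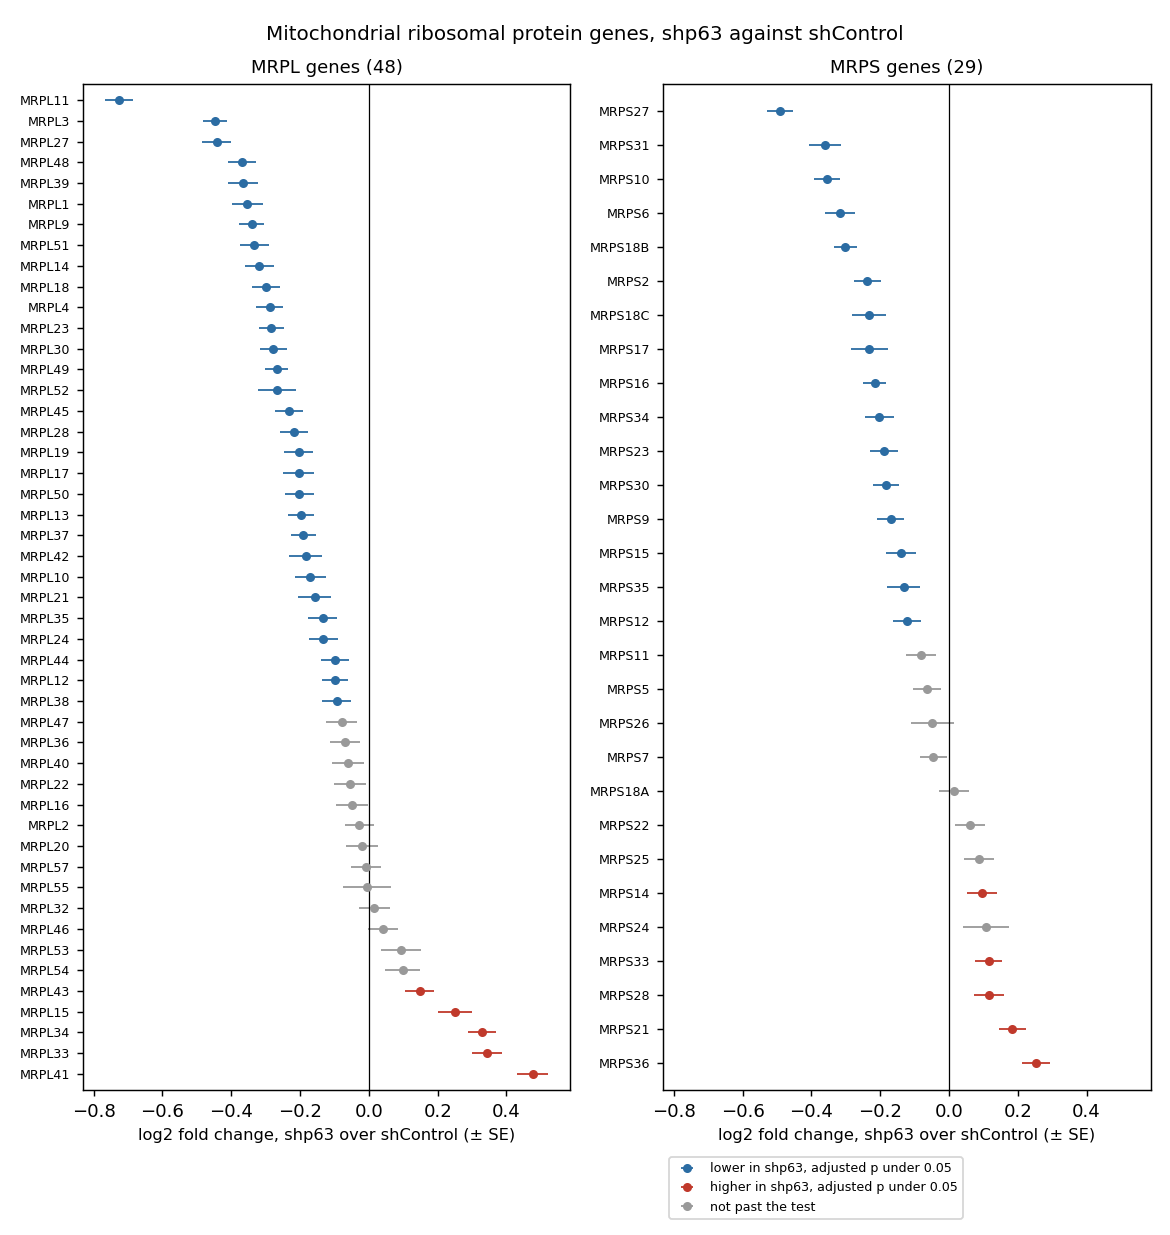
Log2 fold change of each of the 77 genes in shp63 over shControl on the x axis, with bars for the standard error, ordered by value within the MRPL genes (left) and the MRPS genes (right). Blue genes fell and red genes rose at an adjusted p under 0.05, grey genes did not pass. Most points lie between -0.4 and 0.3, and MRPL11 stands apart at -0.73.

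The largest fall was that of MRPL11. Its protein sits at the base of the stalk where translation factors bind to the large subunit, and its gene lies on chromosome 11 from 66202546 to 66234209 on the minus strand (GRCh37, GENCODE release 44 mapped to that build). MRPL11 stood at 47.0 and 47.4 CPM in shControl and at 27.5 and 29.7 CPM in shp63. Both shp63 libraries were well below both shControl libraries, and the mean was 1.65-fold lower (log2 fold change -0.73, SE 0.041, adjusted p = 4.54e-13, edgeR with Benjamini-Hochberg).

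MRPS27, a pentatricopeptide repeat protein of the small subunit, came next. Its gene on chromosome 5 (71510780 to 71617544, minus strand) was at 101.6 CPM in both shControl libraries and at 71.7 and 72.8 CPM in shp63, 1.41-fold lower (log2 fold change -0.49, SE 0.038, adjusted p = 1.13e-10, edgeR with Benjamini-Hochberg). MRPL3, a core protein of the large subunit and the family's most abundant transcript by CPM, fell from 149.6 and 149.8 CPM to 106 and 114 CPM (log2 fold change -0.45). MRPL27 and MRPL48 belong to the central protuberance, the top of the large subunit that faces the small one. MRPL27 fell from 52.9 and 51.0 CPM to 37.1 and 39.4 CPM. MRPL48 fell from 43.5 and 42.6 CPM to 32.0 and 34.7 CPM. MRPL39, a protein of the exit side of the large subunit, fell from 54.6 and 53.7 CPM to 40.3 and 43.6 CPM (log2 fold change -0.37). These 6 genes were chosen among called members whose groups do not overlap, so their separation is not a result.

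The 10 genes that rose did so by 6.97% to 39.1%. MRPL41 (chromosome 9, 140446331 to 140447007, plus strand, GRCh37), which has no bacterial counterpart in ribosomes, rose most, from 24.4 and 25.2 CPM to 34.1 and 34.9 CPM (log2 fold change 0.48, SE 0.045, adjusted p = 3.32e-09, edgeR with Benjamini-Hochberg). MRPL33 and MRPL34 encode small large-subunit proteins kept from bacteria. MRPL33 rose from 49.7 and 50.2 CPM to 61.5 and 65.2 CPM (log2 fold change 0.34). MRPL34 rose from 65.5 and 63.1 CPM to 80.8 and 80.6 CPM (log2 fold change 0.33). MRPS36, the member that is no ribosomal protein, rose from 31.3 and 31.4 CPM to 37.2 and 37.6 CPM (log2 fold change 0.25). MRPL15 rose from 48.6 and 47.2 CPM to 53.6 and 60.4 CPM, and its shp63 libraries lay further apart than those of the others. MRPS21 rose from 38.1 and 39.8 CPM to 45.1 and 43.5 CPM. The other risers were MRPL43 at a log2 fold change of 0.15, MRPS28 and MRPS33 at 0.12 and MRPS14 at 0.10. The rises of MRPS14, MRPS28 and MRPS33 were not called by DESeq2. In edgeR without the first shControl library these 3 and MRPL43 lost their calls, which left 6 rises. With library totals in place of TMM factors 6 members rose and 56 fell, with the median of all tested genes at -0.10.

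**Figure D2:**
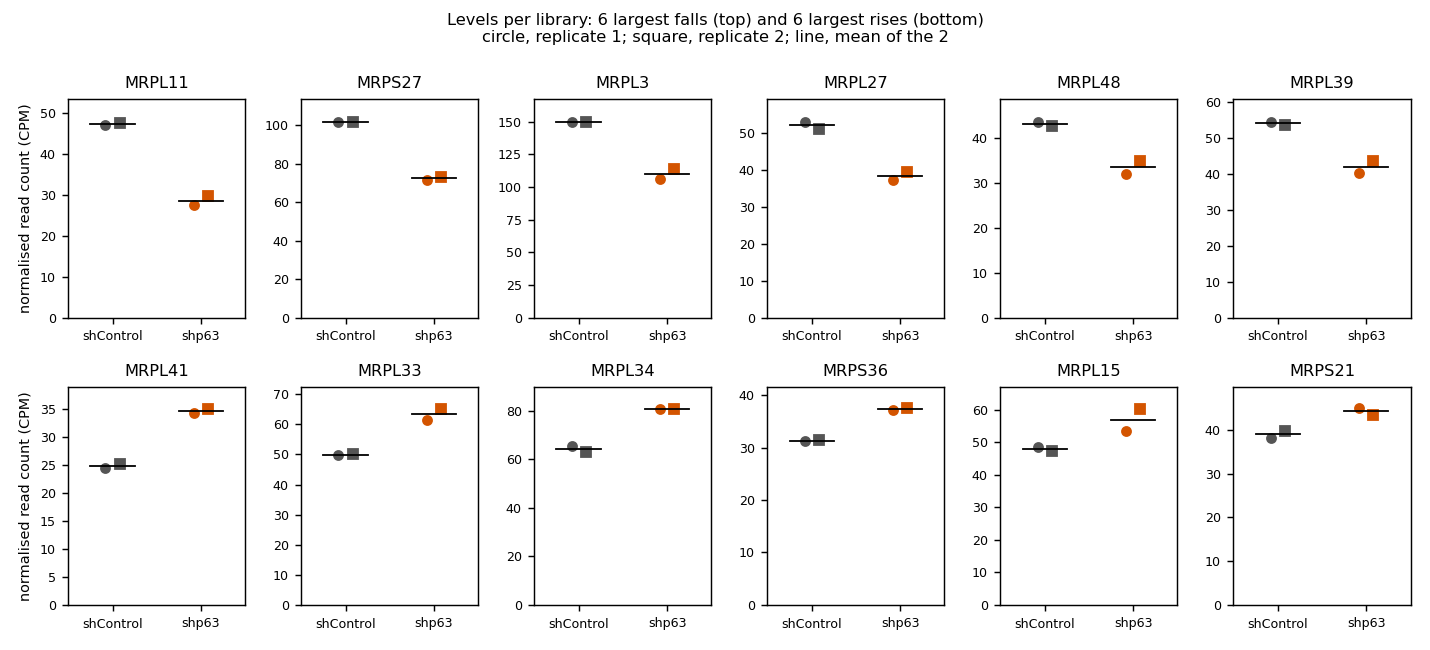
Normalised read count (CPM, y axis from 0) in each library for the 6 largest falls (top row) and the 6 largest rises (bottom row). Circles are replicate 1, squares replicate 2 and lines the mean of the 2. The genes were chosen among called members whose shControl and shp63 points do not overlap.

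Promoter windows of 300 bases, from 250 before to 50 after the start, were available in a RefSeq table (GRCh38.p14) for 68 of the 77 genes. The windows of the 2 largest falls and the 2 largest rises are printed to show what kind of promoter these genes have. MRPL11 (chr11:66438799-66439098, minus strand), MRPS27 (chr5:72320191-72320490, minus strand), MRPL41 (chr9:137551629-137551928, plus strand) and MRPL33 (chr2:27771469-27771768, plus strand) are shown 5′ to 3′ on the strand of the gene. Capitals mark letters found by the motif search.
MRPL11: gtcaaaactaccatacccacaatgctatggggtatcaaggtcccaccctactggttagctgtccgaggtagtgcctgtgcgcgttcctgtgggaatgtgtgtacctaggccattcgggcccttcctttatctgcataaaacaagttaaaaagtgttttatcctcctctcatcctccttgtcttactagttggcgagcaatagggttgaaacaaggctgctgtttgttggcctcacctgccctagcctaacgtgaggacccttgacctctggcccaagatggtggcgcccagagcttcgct
MRPS27: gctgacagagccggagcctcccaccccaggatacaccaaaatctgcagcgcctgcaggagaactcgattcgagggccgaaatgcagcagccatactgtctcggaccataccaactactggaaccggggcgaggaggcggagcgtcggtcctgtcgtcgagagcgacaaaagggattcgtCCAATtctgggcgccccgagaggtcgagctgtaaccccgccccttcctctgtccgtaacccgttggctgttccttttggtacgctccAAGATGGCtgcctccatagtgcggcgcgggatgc
MRPL41: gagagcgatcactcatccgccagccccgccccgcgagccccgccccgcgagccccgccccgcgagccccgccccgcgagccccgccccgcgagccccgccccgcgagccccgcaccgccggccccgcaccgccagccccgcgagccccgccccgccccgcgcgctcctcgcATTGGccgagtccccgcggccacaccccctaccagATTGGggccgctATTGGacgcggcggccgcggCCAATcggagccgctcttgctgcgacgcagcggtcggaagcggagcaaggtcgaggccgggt
MRPL33: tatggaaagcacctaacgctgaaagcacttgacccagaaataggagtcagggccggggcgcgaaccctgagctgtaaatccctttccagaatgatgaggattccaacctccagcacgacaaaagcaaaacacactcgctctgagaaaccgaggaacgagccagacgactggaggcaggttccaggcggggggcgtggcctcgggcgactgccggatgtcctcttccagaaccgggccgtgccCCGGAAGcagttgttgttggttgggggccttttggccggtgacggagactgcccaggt
The search on both strands used the letters CCGGAAG (core of ETS factor sites), AAGATGGC (core of YY1 sites), CACGTG (the E-box bound by MYC and others), CCAAT, TGACGTCA (CRE) and TATAAA, and the palindromic core of NRF1 sites. None of these motifs contains another, and a match describes letters, not binding.

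In MRPS27 the capitals are a CCAAT and, past the start, the YY1 letters. In MRPL41 they are 4 CCAAT boxes, 3 of them on the reverse strand, and in MRPL33 the ETS letters. The window of MRPL11 held none of the 7 motifs. Across the family, 28 of 68 windows (41.2%) held the ETS letters, against 10.7% of all 27305 promoters and 18.1% of the 10665 promoters of tested genes. The YY1 letters stood in 20 of 68 (29.4%), against 3.03% of all promoters and 5.14% of those of tested genes. The E-box was in 6 windows (8.82%, against 7.43% of all promoters and 9.76% of those of tested genes). The NRF1 core was in 1 (1.47%, against 1.36% and 2.14%) and CCAAT in 20 (29.4%, against 35.7% and 36.4%). TATAAA was in 2 (2.94%, against 11.95% and 5.86%). The CRE letters, in 1.98% of all promoters and 3.09% of those of tested genes, were found in no member's window. By direction, the ETS letters were in 15 of 41 windows of genes that fell, 4 of 7 of genes that rose and 9 of 20 of genes that did not pass. The YY1 letters were in 11 of 41 that fell and 9 of 20 that did not pass, and in no window of a gene that rose. The E-box letters were in 4 of 41, in none of the 7 and in 2 of 20.

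The parts of the ribosome were then taken in turn. For these and the later counts, the background was 37.1% of tested genes lower and 36.9% higher. In the large subunit, counting MRPS30 and MRPS18A, 31 of 50 genes fell and 5 rose, with a median log2 fold change of -0.16. In the small subunit 15 of 26 fell and 4 rose, with a median of -0.14. Proteins with bacterial homologs (29 of 48 lower, 6 higher, median -0.15) and those particular to mitochondria (17 of 28 lower, 3 higher, median -0.16) gave like values. These splits follow general knowledge of the ribosome's structure.

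The stalk that recruits translation factors was uneven. MRPL11 fell as given, and MRPL10, which anchors the stalk, fell from 33.3 and 35.0 CPM to 29.9 and 30.8 CPM. MRPL12, the repeated stalk protein that is also known to bind the mitochondrial RNA polymerase, went from 103.1 and 102.5 CPM to 93.2 and 98.9 CPM (log2 fold change -0.10, adjusted p = 0.0241, edgeR with Benjamini-Hochberg), and DESeq2 did not call it. Without the first shp63 library its log2 fold change was -0.05 and the call was lost. MRPL53 and MRPL54, which lie nearby, did not pass, with MRPL53 at 15.8 and 16.1 CPM against 17.4 and 16.6 CPM. MRPL54 was at 20.7 CPM in both shControl libraries and at 22.2 and 22.1 CPM in shp63. MRPL1, the protein of the opposite stalk that guides spent tRNA out, fell from 34.2 and 34.6 CPM to 26.2 and 27.7 CPM.

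Of 7 listed genes of the exit tunnel, where the new protein leaves and meets the inner membrane, 6 fell and MRPL22 did not pass (28.9 and 28.7 CPM against 27.3 and 28.2 CPM). Their median log2 fold change was -0.20. MRPL45, which ties the ribosome to the membrane, fell from 53.5 and 53.8 CPM to 44.8 and 46.6 CPM. MRPL23 fell from 44.2 and 44.8 CPM to 36.6 CPM in both shp63 libraries. MRPL24 and MRPL17 fell by 0.13 and 0.20 on the log2 scale. MRPL44, a protein with an RNase III fold, fell by 0.10 (adjusted p = 0.0377, edgeR with Benjamini-Hochberg) and was not called by DESeq2. MRPL47, another exit protein outside that list, was at 56.4 and 54.8 CPM against 50.8 and 54.4 CPM and did not pass.

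Of 8 genes of the central protuberance 5 fell (MRPL27, MRPL48, MRPL18, MRPL52 and MRPL38) and MRPL40, MRPL46 and MRPL55 did not pass. MRPL18 fell from 37.3 and 36.7 CPM to 29.8 and 30.4 CPM. MRPL38 fell by 0.09 on the log2 scale (adjusted p = 0.0474, edgeR with Benjamini-Hochberg), a call that DESeq2 did not make. MRPL46 was at 33.9 and 32.1 CPM against 33.4 and 34.6 CPM, and MRPL55 at 11.3 CPM in both shControl libraries against 10.9 and 11.6 CPM. Near the centre that forms peptide bonds, MRPL3 and MRPL4 fell (MRPL4 by 0.29 on the log2 scale), while MRPL2 was at 47.97 and 46.97 CPM against 45.5 and 47.6 CPM. MRPL16 was at 58.85 and 55.9 CPM against 53.7 and 57.2 CPM. In MRPL2 and MRPL16 the groups overlapped.

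In the small subunit, MRPS12, the protein at the decoding centre, went from 52.7 and 51.8 CPM to 47.3 and 48.7 CPM (log2 fold change -0.12), a fall that DESeq2 did not call. MRPS2 fell from 50.7 and 51.3 CPM to 43.5 and 43.0 CPM. MRPS5 and MRPS24, which line the mRNA path, did not pass, MRPS5 at 67.6 and 67.4 CPM against 63.1 and 66.1 CPM. Of 7 genes of the head, 4 fell (MRPS31, MRPS10, MRPS9 and MRPS35), MRPS33 and MRPS14 rose, and MRPS7 was at 69.6 CPM in both shControl libraries and 67.4 CPM in both shp63 libraries. The fall of MRPS35 was not called without the first shp63 library. MRPS10 fell from 120 and 122 CPM to 92.0 and 97.3 CPM. MRPS22 and MRPS34, known from inherited mitochondrial disease, differed in outcome. MRPS34 fell from 67.8 and 65.8 CPM to 57.5 and 58.6 CPM, and MRPS22 was at 54.3 and 54.7 CPM against 55.4 and 58.3 CPM. A test of the difference between these genes was not made.

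The MRPS18 paralogs share a bacterial ancestor and sit in different places. MRPS18B fell from 136 and 132 CPM to 108 and 110 CPM (log2 fold change -0.30). MRPS18C, the direct counterpart of the bacterial protein, fell from 28.0 and 27.8 CPM to 23.2 and 24.4 CPM (log2 fold change -0.23). MRPS18A, of the large subunit, was at 56.4 and 57.1 CPM in shControl and 57.5 and 57.2 CPM in shp63 (adjusted p = 0.764, edgeR with Benjamini-Hochberg). MRPS30, also of the large subunit, fell from 88.6 and 90.2 CPM to 77.9 and 79.6 CPM.

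The 21 members that did not pass lay between -0.08 and 0.11 on the log2 scale, with groups that overlapped in 9. Besides those given above they were MRPS11, MRPL36, MRPS26, MRPL20, MRPL57, MRPL32 and MRPS25. MRPL32 was at 73.7 and 68.6 CPM against 69.5 and 74.4 CPM, and MRPS24 at 12.25 and 13.8 CPM against 14.05 and 13.98 CPM.

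The 6 most abundant members by CPM (MRPL3, MRPL37, MRPS18B, MRPS16, MRPL49 and MRPS10) all fell, by 0.19 to 0.45 on the log2 scale. Divided into 3 by shControl level, 10 of the 26 least abundant genes fell and 5 rose, and 19 of the 26 most abundant fell and 1 rose. Across the 77 genes the log2 fold change and the log2 level in shControl had a Pearson r of -0.35. With the log2 number of exons of the canonical GENCODE transcript r was -0.43, and with its log2 length -0.22. These values are given as a description, since the genes share 4 libraries. The same control values also enter both the level and the fold change. Per kilobase of the canonical GENCODE transcript, shControl levels ran from 3.62 CPM per kb for MRPL42 to 113 CPM per kb for MRPL51, with MRPL12 at 102 CPM per kb. The low end depends on the transcript chosen, as that of MRPL42 is 15557 nucleotides long and the annotation behind the counts is not given in the sources used here.

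Read assignment limits some members. GENCODE names at least 1 pseudogene of 36 of the 77 genes, with up to 8 for MRPS21. Of the 41 without a named pseudogene 26 fell and 6 rose, and of the 36 with one 20 fell and 4 rose. Canonical exons of 8 members overlap those of another counted gene. MRPS24 shares 90.9% of its length with the readthrough gene URGCP-MRPS24 on the same strand, and MRPS6 shares 168 nucleotides with SLC5A3. For these genes the counts are uncertain. Leaving out all 8, 43 of 69 fell and 10 rose.

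Many of the 77 genes start back to back with another gene. On GRCh37, 24 of them (31.2%) have a protein-coding neighbour on the opposite strand that starts within 1000 bases upstream, against 11.3% of 12565 tested protein-coding genes. MRPL46 and MRPS11 form such a pair with each other, 320 bases apart, and neither passed the test. In the other 22 pairs, 16 neighbours fell and 4 rose, while 15 members fell and 7 did not pass. In 12 pairs both genes fell, in a set where most members and most neighbours fell, and a link within pairs was not tested.

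The neighbours' median absolute log2 change was 0.30, against 0.18 for the family and 0.36 over all tested genes. Changes beyond 0.5 made up 27.3% of the neighbours and 37.8% of tested genes. In the pairs named next the neighbour's change was the larger one. In others the member's was, as in MRPS27 (-0.49) and PTCD2 (-0.21). SKA3, a gene of the mitotic spindle attachment, fell by 1.79 on the log2 scale, and MRPL57, which starts 106 bases away, was at 32.2 and 33.5 CPM against 31.9 and 33.4 CPM. NCAPD2, a condensin gene, fell by 1.55, and its neighbour MRPL51 by 0.33. EME1, a DNA repair nuclease gene, fell by 1.42, and MRPL27, which starts 45 bases away, by 0.44. MTBP fell by 1.15, and MRPL13 by 0.20. In the other direction, NDUFB5, a complex I subunit gene, rose by 0.49, while MRPL47 did not pass, and LRRC46 rose by 0.90, while MRPL10 fell by 0.17. The difference within a pair was not tested.

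**Figure D3:**
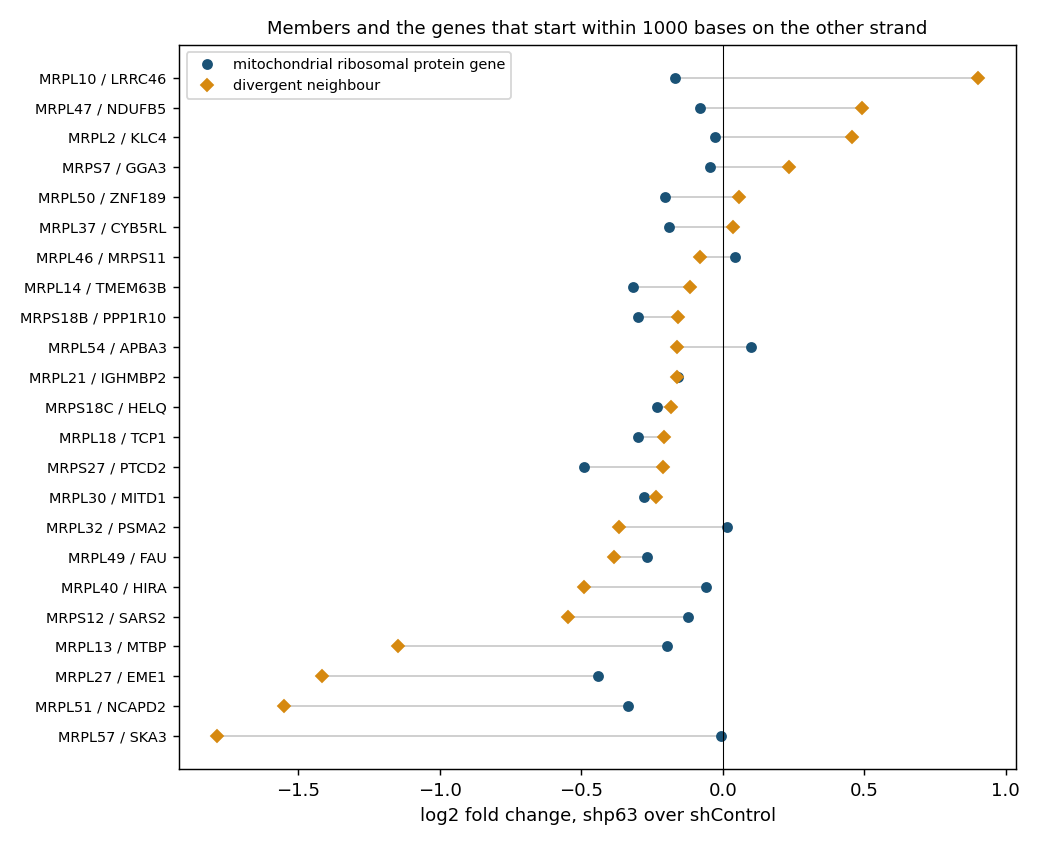
Log2 fold change in shp63 over shControl (x axis) for each member (circle) and the gene that starts within 1000 bases on the other strand (diamond), one pair per row, ordered by the neighbour's value. The neighbours run from -1.79 to 0.90, the members from -0.49 to 0.10.

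Genes that work with the mitochondrial ribosome were taken from lists of general knowledge. As a background for each list, 74.0% of all tested genes were called, 37.1% lower and 36.9% higher. Of 6 further ribosomal proteins whose symbols do not begin with MRPL or MRPS, AURKAIP1 rose (34.4 and 37.4 CPM to 40.3 and 42.4 CPM), and ICT1 and GADD45GIP1 fell by 0.14 and 0.16 on the log2 scale. DAP3, CHCHD1 and PTCD3 did not pass, with DAP3 at 93.8 and 96.8 CPM against 97.7 and 101 CPM. The median of these 6 was 0.03. DESeq2 called neither fall, at an unadjusted p under 0.05 either. Without the first shp63 library edgeR called neither, and without the second shControl library it called 1.

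Of 26 assembly factors, which process ribosomal RNA and help the subunits form, 12 fell and 2 rose (median log2 fold change -0.12). FASTKD2, an RNA-binding protein of large-subunit assembly, fell from 93.7 and 92.9 CPM to 69.4 and 71.6 CPM, and RBFA, of small-subunit maturation, from 24.3 and 22.5 CPM to 16.0 and 16.2 CPM. NGRN rose from 127 and 130 CPM to 148.3 and 155.8 CPM. With library totals 20 fell and 1 rose.

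Of 20 factors of mitochondrial translation 9 fell and 5 rose (median -0.07), or 14 and 4 with library totals. C12orf65, a release factor homolog, fell from 19.8 and 19.2 CPM to 9.34 and 9.93 CPM, and GFM1, an elongation factor, from 104 and 102 CPM to 75.3 and 82.9 CPM. COX18, an insertase of the inner membrane, rose from 31.5 and 30.1 CPM to 43.5 and 46.9 CPM, and MTIF3, an initiation factor, from 21.3 and 21.2 CPM to a mean of 28.9 CPM.

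Of 17 mitochondrial aminoacyl-tRNA synthetases, which charge the tRNAs that the ribosome uses, 5 fell and 4 rose (median -0.05), or 10 and 2 with library totals. AARS2 and SARS2 fell by 0.54 and 0.55 on the log2 scale, and CARS2 and HARS2 rose by 0.25 and 0.19. SARS2 starts 181 bases from MRPS12.

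Of these lists, the genes that copy and transcribe mitochondrial DNA had the lowest median log2 fold change. Of 11 such genes 8 fell and 3 did not pass (POLRMT, MTERF and POLG), with a median log2 fold change of -0.36. The size of their changes was that of the transcriptome. Their median absolute log2 change was 0.36, the same as over all tested genes. Changes beyond 0.5 made up 36.4% of the list, against 37.8% of tested genes. MGME1, a nuclease of mitochondrial DNA replication, fell from 28.3 and 27.5 CPM to 11.4 and 13.5 CPM (log2 fold change -1.17). C10orf2, which encodes the helicase Twinkle, fell from 31.4 and 33.0 CPM to 17.01 and 17.81 CPM (log2 fold change -0.89). TFAM, which packages and transcribes mitochondrial DNA, fell from 87.7 and 87.9 CPM to 58.5 and 62.2 CPM (log2 fold change -0.54). POLRMT, the mitochondrial RNA polymerase, was at 44.3 and 47.0 CPM against 44.9 and 43.2 CPM. Differences between these lists and the MRPL and MRPS genes were not tested. The mRNAs encoded in mitochondria themselves, which this ribosome translates, were not analysed here. Of 13 looked up by symbol, 0 were found among the counted genes.

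**Figure D4:**
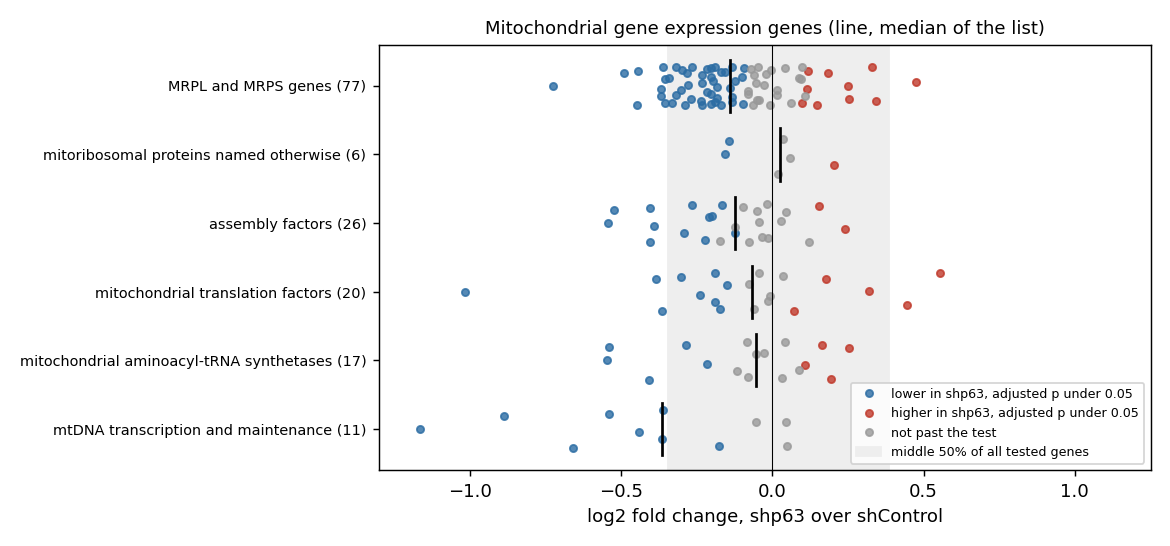
Log2 fold change in shp63 over shControl (x axis) of each gene in the family and in 5 lists of related genes, with a black line at each list's median and a grey band for the middle 50% of all tested genes. The family's median lies at -0.14 inside the band, and that of the mitochondrial DNA genes lies at -0.36.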

How the data were processed

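Poly(A) RNA libraries of 4 cultures, 2 per group, were analysed. The authors aligned reads to GRCh37 (hg19) with TopHat2 and counted them per gene with HTSeq, as the series' own description says. TopHat2 was version 2.0.13 and HTSeq version 0.6.1 per the submitters' processing notes. The library kit keeps strand, per the labels' protocols, but how HTSeq treated strand, and which annotation it used, is not given in the sources used here. The deposited values are raw read counts per gene symbol, and the libraries total 51926832 to 53924761 counted reads.

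Counts were fitted with edgeR 4.0.16 (R 4.3.3): TMM factors, filterByExpr (minimum count 10, minimum total 15; 14901 of 25369 genes kept), robust quasi-likelihood with group as the only term, Benjamini-Hochberg over all tested genes, calls at 0.05. The common biological coefficient of variation was 0.0308. The submitters call the samples independent biological replicates. Alternatives used DESeq2 1.42.0, limma 3.58.1, other scalings and filters, a replicate block and each library left out. The fit was tested on simulated data in which few genes changed. In these data 74.0% of tested genes were called, a case that the simulation does not cover. The members, lists and roles were chosen with earlier results of these data known. Values in full are given for the 6 largest falls and rises of at least 5 CPM with groups that do not overlap. The 6 most abundant members and a list of members by role are also covered, some by log2 fold change, a range or name alone. The members that did not pass are named, and up to 2 genes per direction in other lists, chosen by adjusted p. MRPL4, MRPL17, MRPL47, MRPS2, MRPS10, TFAM, DAP3 and POLRMT, the divergent neighbours and the further members and markers named were chosen after their values were seen. Positions come from GENCODE release 44 mapped to GRCh37, promoter windows from RefSeq. Some marker results are not reported here.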

Additional observations from a re-analysis of the deposited data

How the results depend on the processing

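The direction of TP63 and of the 56 called members held under all alternatives run. Of the 21 members that did not pass, 10 were called with library totals. These were MRPL16, MRPL2, MRPL20, MRPL22, MRPL36, MRPL40, MRPL47, MRPS11, MRPS5 and MRPS7. With each library left out, some changed sign, such as MRPL2 (log2 fold change -0.061 to 0.006) and MRPL32 (-0.044 to 0.066). Named genes outside the family, other than TP63, were not followed through the alternatives singly. Scaling by library totals gave 6 higher members, 2 higher MRPS genes, a median log2 fold change of -0.23 (all genes -0.10) and a summed ratio of 0.848, against 0.902. It gave 1 higher and 20 lower assembly factors, 14 lower translation factors, and 2 higher and 10 lower synthetases. This scaling omits the composition factor. Against a 1.5-fold change, 1894 genes were higher and 1491 lower, against 5499 and 5534 for any change. Among members this test called 1 gene lower (an MRPL gene, MRPL11), and 0 MRPL genes higher, 0 MRPS genes in either direction, also at an unadjusted p under 0.05. Of the lists it called 1 translation factor and 2 mitochondrial DNA genes lower and 0 others. DESeq2 called 2 higher MRPS genes and 0 lower among the 6 ribosomal proteins named otherwise (0 at an unadjusted p under 0.05). In all DESeq2 kept 48 of 56 member calls. The cause was not tested. Leaving out each library gave 5168 to 5272 higher and 5171 to 5314 lower genes. For members it gave 6 to 11 higher and 41 to 48 lower, 4 to 5 and 27 to 32 MRPL, 2 to 6 and 14 to 17 MRPS genes, and a median of -0.18 to -0.12. Without the first shControl library MRPL24, MRPL38, MRPL44, MRPS12 and MRPS15 lost their falls, 6 members and 2 MRPS genes were higher, and without the second shp63 library 3 MRPS genes were higher and MRPL38, MRPS14, MRPS28 and MRPS33 lost their calls. MRPS14 and MRPS28 lost theirs without the second shControl library, and MRPL12, MRPL21, MRPL44 and MRPS35 without the first shp63 library. The summed ratio ranged from 0.884 to 0.919. The ribosomal proteins named otherwise gave 1 higher and 0 to 2 lower, assembly factors 2 to 3 and 11 to 13, translation factors 4 to 5 and 8 to 10, synthetases 4 and 5 to 6, mitochondrial DNA genes 0 higher (at most 1 at an unadjusted p under 0.05) and 7 to 8 lower. TP63 gave -2.17 to -2.15. With the replicate number as a block 9 members were higher and 44 lower (all genes 5408 and 5450), and MRPL38, MRPL44 and MRPS14 lost their calls. The deviations of same-numbered libraries correlated at -0.112. With 2 libraries per group this value cannot show whether the numbers pair the samples. A crossed pairing, added after seeing the data, called 11 members higher and 47 lower (all genes 5659 and 5728). MRPL47 and MRPS25 gained calls in it.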
